A study of Mus musculus with 4 samples.

Results

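Transcripts of 41 genes for matrix glycoproteins and proteoglycans were followed in single cells of dystrophic mouse muscle. The genes were taken by symbol from the 32285 genes in the count matrices, and each of the 41 symbols was found on 1 row. They were put into 4 groups by role. These were 12 genes of fibronectin and the elastic fibres, 14 matricellular genes, 7 basement membrane genes, and 8 small leucine-rich or large proteoglycans. The matricellular group was taken broadly and also holds Tnxb, Matn2 and Cilp. Expression was read in cell classes that were gated on the molecule counts of marker genes, with none of the 41 genes among the markers.

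The matrix of muscle is built by fibroblasts, tenocytes and vascular cells around the muscle fibres. Fibronectin and the elastic fibre proteins form fibrils that cells hold on to and stretch. Matricellular proteins such as periostin and the thrombospondins add little to structure, but bind receptors, growth factors and collagen and are known to be made during repair. Laminins, nidogens and perlecan make up basement membranes, and small leucine-rich proteoglycans such as decorin bind collagen fibrils and set their spacing. Chronic injury in muscle that lacks dystrophin is known for the build-up of such matrix as fibrosis.

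The libraries came from mononuclear cells of the quadriceps or the diaphragm of mice aged 14 weeks. Groups were mdx5cv, a mouse line without functional dystrophin, and mdx5cv/Ccr2-/-, which carries the same dystrophin mutation and in addition lacks Ccr2, a chemokine receptor of monocytes. Thus all 4 groups are dystrophic, and no healthy muscle was measured. How many animals went into each library is not stated in the labels or notes used here, nor is the part of Ccr2 that is deleted. The knockout is not tied to a cell type by the labels, and muscle fibres themselves are absent from a suspension of mononuclear cells.

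There was 1 library per group, so no difference below has a replicate check, no test was made and no p-value is given. Intervals are exact 95% intervals for counting error only, since unique molecular identifiers (UMIs) were counted, and do not cover variation between animals, dissections or cells of a class. Where 4 values stand together, the quadriceps pair comes before the diaphragm pair, and within each pair mdx5cv precedes mdx5cv/Ccr2-/-. Ccr2, checked first, stood at 247, 15.1, 131 and 8.71 CPM over the deposited barcodes, where CPM is a gene's UMIs scaled to a total of 1e6 UMIs,, so the 2 libraries labelled as knockouts were the low ones. The libraries held 56399477, 66330555, 92189580 and 67356144 UMIs, and 4965, 6362, 11193 and 6049 cells were kept. Between 9 and 30 barcodes were shared by a pair of libraries, at most 0.411% of the smaller library.

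A cell entered a class with at least 3 UMIs from at least 2 of its 5 or more markers and at least 3 times the marker UMIs of every other class, with exceptions given under the processing. This placed 24351 of 28569 cells (85.2%) in 11 classes. Fibroblast-like cells numbered 894, 1080, 5528 and 3025, with a median of 13632, 13845, 6228 and 9927 UMIs per cell. The fibroblast label was checked on 5 collagen and protease genes outside the gate. Of these, Col6a1 was highest in fibroblast-like cells in 4 libraries, Col3a1 in 3 and Mmp2 in 2, whereas Col1a1 and Col1a2 were higher in another class in each library. Over all classes, 36 of 46 such check markers were highest in their own class in every library.

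The 41 genes made up 3.44%, 4.36%, 5.05% and 5.20% of the UMIs of fibroblast-like cells, and between 5.96% and 6.66% of those of tenocyte-like cells. Lymphoid-like cells, which should not transcribe most of these genes, held 0.0220% to 0.0473%, which sets the level of free RNA. Fibroblast-like cells thus carried most of the matrix message of each library: 64.4%, 53.4%, 77.2% and 69.3% of all UMIs of the 41 genes lay in them. Tenocyte-like cells, only 149, 266, 125 and 203 in number, held 13.1%, 16.9%, 3.33% and 7.41%. Blood endothelial-like cells held 6.0% and 7.03% in quadriceps and less, 0.523% and 0.958%, in diaphragm libraries. Cells that met no gate held 13.2% to 21.8%.

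**Figure D1:**
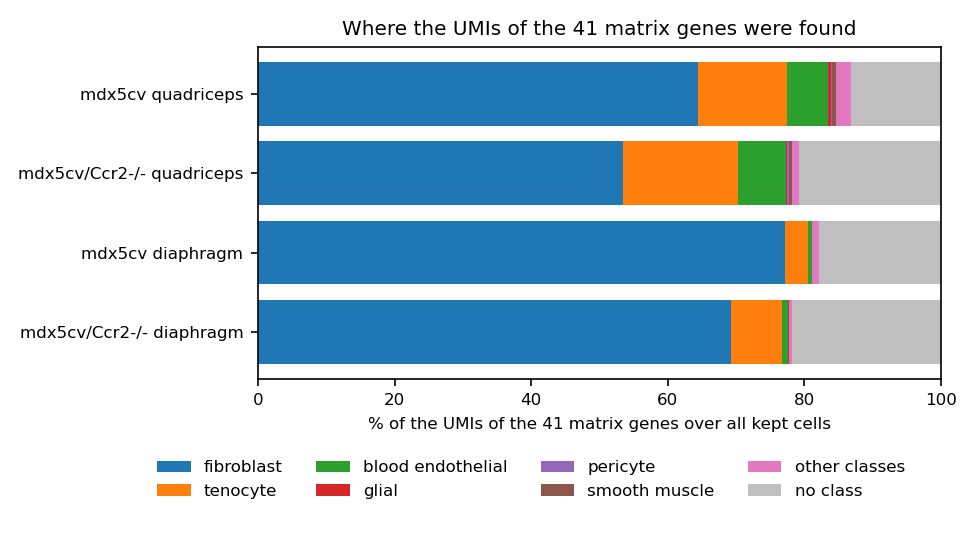
Share of the UMIs of the 41 matrix genes found in each gated cell class, in percent of their UMIs over all kept cells, 1 bar per library. Fibroblast-like cells held 53.4% to 77.2%, and the tenocyte-like share was larger in quadriceps libraries (13.1% and 16.9%) than in diaphragm libraries (3.33% and 7.41%).

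The genes differed in the class where their CPM was highest, with overlapping ranges for the larger part. This order is by level within a class and not by share of UMIs. Fn1, for one, had its highest median CPM in tenocyte-like cells, which held 4.98% to 17.9% of its UMIs. Fibroblast-like cells held 53.1% to 69.3% of them. By the median CPM over the 4 libraries, 22 of the 41 were highest in tenocyte-like cells, 14 in fibroblast-like cells, 2 in lymphatic endothelial-like cells, and 1 each in smooth muscle-like, glial-like and blood endothelial-like cells. UMIs are counted at the 3′ end of each transcript, so these CPM are not scaled by gene length. The spread given is that of the 4 libraries, which are 4 different groups and not replicates. For 15 genes the range over the libraries in the leading class did not overlap that of the next, and for the other 26 it did.

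Among the genes clear of the next class, Fmod, whose product fibromodulin is a collagen-binding proteoglycan of tendon, ran from 745 to 6192 CPM in tenocyte-like cells against 26.7 to 86.6 in fibroblast-like cells. Its ratio between these classes was at least 27.2 in each library. Thbs4, a thrombospondin of tendon and muscle, ran from 5368 to 11395 CPM in tenocyte-like and from 1526 to 2462 in fibroblast-like cells. Comp, a pentameric relative of the thrombospondins, and Thbs1 were at least 4.42 and 4.16 times higher in tenocyte-like cells. Tnc, Cilp and Ogn were the other 3 genes that led there without overlap.

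Fibroblast-like cells led without overlap for Fbln2, Thbs3, Smoc2 and Nid1. Smoc2, a secreted calcium-binding glycoprotein, stood at 931 to 1397 CPM in them against 321 to 855 in tenocyte-like cells. Nid1, which links laminin to collagen in basement membranes, stood at 730 to 1179 CPM. Vascular and nerve-associated cells had their own members. Sparcl1, an anti-adhesive relative of Sparc, was highest in smooth muscle-like cells at 3159 to 3743 CPM, followed by blood endothelial-like cells at 1557 to 1908. Hspg2, which encodes perlecan, led in blood endothelial-like cells at 458 to 546 CPM, a narrow margin over the 383 to 413 of fibroblast-like cells. Lama4, a laminin chain of vessel walls, stood at 449 to 600 CPM in lymphatic endothelial-like cells. Matn2, a matrilin of the filamentous matrix around nerves, stood at 730 to 1434 CPM in glial-like cells against 88.1 to 182 in fibroblast-like cells.

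Genes often taken as fibroblast markers were shared. Aspn, which encodes the proteoglycan asporin, stood at 1506 to 1888 CPM in pericyte-like cells, inside the 753 to 1987 of fibroblast-like cells. Postn, which encodes periostin, stood at 1226 to 2295 CPM in glial-like cells, overlapping the 1789 to 5137 of fibroblast-like cells. The lymphoid-like cells held 19.7 to 46.4 CPM of Postn, so these levels lie far over free RNA. Glial-like and pericyte-like classes held 15 to 95 cells per library. Efemp1, a fibulin, stood at 591 CPM in mesothelial-like cells, which were found in the mdx5cv diaphragm library alone (77 cells), against 24.8 to 62.9 in fibroblast-like cells.

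**Figure D2:**
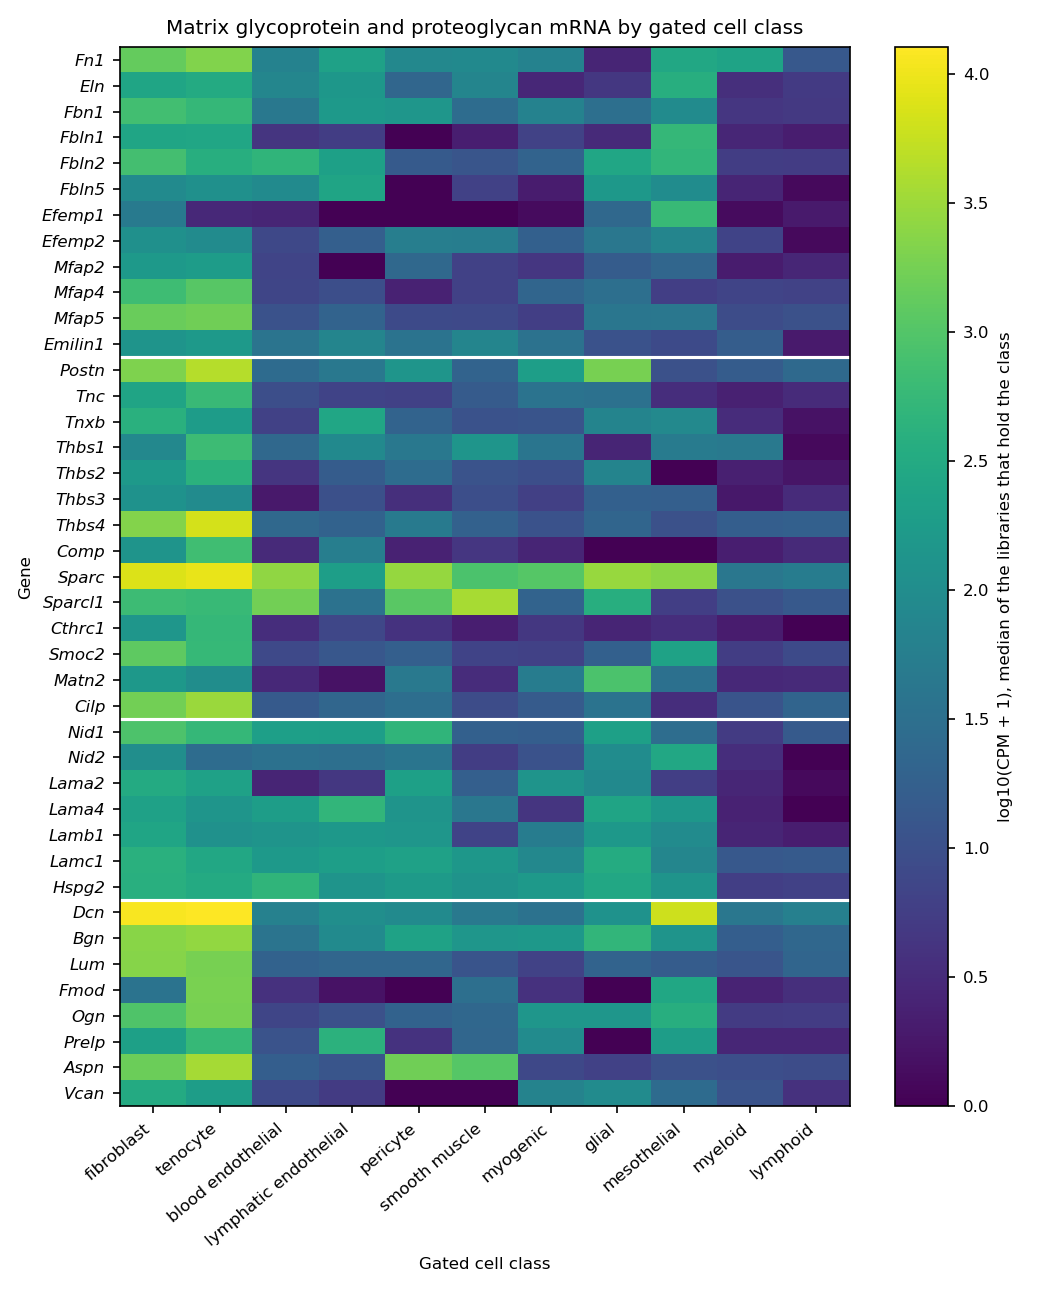
Level of each of the 41 genes (rows, grouped by role between white lines) in each gated class (columns), as log10(CPM + 1) of the median over the libraries that hold the class. The tenocyte and fibroblast columns are the brightest for most genes, while Sparcl1 peaks in smooth muscle-like cells and Matn2 in glial-like cells.

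The first comparison asked how the matrix genes of fibroblast-like cells differed with loss of Ccr2. A ratio of at least 1.5, or at most its inverse, was taken as past the fold. In the quadriceps, 10 of the 41 genes were past the fold upward and 1 downward in mdx5cv/Ccr2-/-, where 3.12% and 3.04% of the 5829 measured genes were. The median log2 ratio was 0.36 over the 41 genes and 0.05 over all measured genes, and 28 of the 41 ratios lay above 1. In the diaphragm 1 gene was past the fold upward and 0 downward, against 0.429% and 0.772% of measured genes, with a median log2 ratio of 0.15 against 0.04. No gene of the 41 was past the fold in both muscles, where 0.0686% of measured genes were upward and 0.309% downward. With TMM scaling factors the quadriceps count was 8 and 2, and 2.33% and 3.84% of measured genes.

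Postn showed the largest difference in CPM of the 41 genes between the quadriceps libraries. Postn stood at 2226, 5137, 1789 and 1946 CPM in fibroblast-like cells. The knockout quadriceps stood apart from the other 3 libraries, which lay close together. The quadriceps ratio by genotype was 2.31 (2.28 to 2.34), whereas the diaphragm ratio was 1.09 (1.08 to 1.10). After each cell was thinned to 2000 UMIs, the share of fibroblast-like cells with a Postn UMI was 51.6%, 81.2%, 51.7% and 58.9%, and 65.3%, 88.2%, 64.3% and 78.2% without thinning. In lymphoid-like cells, whose median depth was 3249 to 4871 UMIs, the thinned share was 2.99%, 8.61%, 3.39% and 5.88%. More of the knockout quadriceps cells therefore carried the transcript, well over the free RNA level.

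Aspn stood at 753, 1450, 1613 and 1987 CPM, with the mdx5cv quadriceps alone as the low library. Its quadriceps ratio by genotype was 1.93 (1.88 to 1.97) and its diaphragm ratio 1.23 (1.22 to 1.25). Both genes are shown with the 250 bases before their annotated start sites (RefSeq, GRCm38.p6), since they were higher together in the knockout quadriceps. Postn lies at chr3:54361109-54391037 on the plus strand, with the stretch shown at chr3:54360857-54361106, and Aspn lies at chr13:49544443-49567565 on the plus strand, with chr13:49544193-49544442 shown. Capitals mark TATAAA, read on either strand.
Postn: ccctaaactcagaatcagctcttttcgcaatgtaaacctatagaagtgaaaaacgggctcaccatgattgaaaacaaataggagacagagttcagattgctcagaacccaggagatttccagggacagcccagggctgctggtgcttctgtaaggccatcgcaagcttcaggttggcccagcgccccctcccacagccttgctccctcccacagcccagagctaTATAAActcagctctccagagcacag
Aspn: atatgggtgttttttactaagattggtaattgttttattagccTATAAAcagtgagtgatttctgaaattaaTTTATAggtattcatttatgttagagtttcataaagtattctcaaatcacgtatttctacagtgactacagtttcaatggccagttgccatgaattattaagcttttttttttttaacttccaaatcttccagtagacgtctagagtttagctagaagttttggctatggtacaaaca
In Postn the match begins 26 bases before the start site. In Aspn there are 2 matches, which begin 207 and 178 bases before it. RefSeq promoters were found for 26 of the 41 genes. Of these, 5 (19.2%) held TATAAA within 250 bases, namely Postn, Tnc, Thbs2, Ogn and Aspn, against 12.4% of 32851 promoters in the table. The other motifs searched on both strands were CCAAT (34.6% against 33.8%), TGANTCA (7.69% against 6.75%) and CATTCC (15.4% against 12.6%). A match is a string of letters and not a known site.

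Among the other matricellular genes, Cthrc1, a secreted protein of collagen-producing cells in repair, stood at 155, 339, 134 and 114 CPM. It was 2.19 times higher (2.08 to 2.30) by genotype in the quadriceps, while the diaphragm ratio of 0.851 (0.816 to 0.887) lay on the other side of 1. Thbs1 stood at 93.4, 166, 69.2 and 47.5 CPM, and its ratios of 1.78 (1.66 to 1.90) and 0.687 (0.645 to 0.731) also went opposite ways. Thrombospondin products of this kind bind cells and can release TGF-beta from its latent form. Thbs2 stood at 193, 325, 136 and 135 CPM, with ratios of 1.69 and 0.999. Cilp, a protein of the cartilage intermediate layer, stood at 1091, 1699, 1763 and 2133 CPM, with ratios of 1.56 and 1.21. Thus 5 of the 14 genes grouped as matricellular, Cilp among them, were past the fold upward in the quadriceps, against 3.12% of measured genes. Thbs4 lay at the edge, at 1526, 2286, 2163 and 2462 CPM and a ratio of 1.5 (1.47 to 1.52) that lay just short of the fold before rounding.

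The diaphragm had 1 gene past the fold, Comp. It stood at 138, 190, 65.5 and 122 CPM, so both diaphragm libraries lay under both quadriceps libraries. Its diaphragm ratio by genotype was 1.86 (1.77 to 1.95) and its quadriceps ratio 1.38 (1.30 to 1.46). It was past the fold in the diaphragm within 3 of the 4 fibroblast sets that follow. Of 12 genes induced by tissue dissociation, 7 were past the fold downward in the knockout diaphragm, and their part was not tested. Sparc, which encodes a collagen-binding protein and was among the most abundant of the 41 genes, stood at 5624, 8119, 8519 and 7599 CPM. The mdx5cv quadriceps was its low library, at a genotype ratio of 1.44, and the other 3 lay within a narrow range. Tnxb, the tenascin of loose connective tissue, stood at 386, 265, 425 and 493 CPM, and its genotype ratios were 0.687 for quadriceps and 1.16 for diaphragm. With TMM scaling, median ratio scaling or a looser tenocyte limit Tnxb passed the fold downward in the quadriceps. The remaining matricellular genes, Tnc, Thbs3, Sparcl1, Smoc2 and Matn2, had quadriceps ratios between 0.815 and 1.43.

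Of fibronectin and the elastic fibre genes, 3 of 12 were past the fold upward in the quadriceps and 1 downward. Of all measured genes 3.12% and 3.04% were. Fn1 stood at 1662, 2773, 755 and 1045 CPM, with ratios of 1.67 (1.64 to 1.70) and 1.38 (1.36 to 1.41). Fibronectin was thus higher in the knockout library of both muscles, past the fold in the quadriceps. Mfap4, a microfibril-associated protein, stood at 199, 441, 925 and 1060 CPM, with ratios of 2.21 (2.12 to 2.31) and 1.15. Mfap2, a fibrillin-binding microfibril protein, stood at 149, 233, 161 and 160 CPM, with ratios of 1.56 and 0.992.

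Efemp1 was the gene past the fold downward. It stood at 62.9, 24.8, 41.7 and 51.2 CPM, with ratios of 0.395 (0.350 to 0.444) for quadriceps and 1.23 (1.15 to 1.32) for diaphragm. Eln, which encodes elastin, stood at 174, 251, 270 and 357 CPM and had ratios of 1.44 and 1.32, short of the fold in both muscles. Fbn1, the fibrillin that scaffolds elastin, was nearly level between genotypes, at 954, 942, 537 and 535 CPM. The others of this group, Fbln1, Fbln2, Fbln5, Efemp2, Mfap5 and Emilin1, had quadriceps ratios from 0.843 to 1.32 and diaphragm ratios from 0.947 to 1.21.

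None of the 7 basement membrane genes passed the fold by genotype in either muscle. Their quadriceps ratios ran from 0.883 for Lamc1 to 1.35 for Lamb1, which encode the gamma and beta chains that most laminins share. In the diaphragm they ran from 1.01 for Lama4 to 1.21 for Lamc1.

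Of the 8 proteoglycan genes, 2 were past the fold upward in the quadriceps, Aspn and Fmod, against 3.12% of measured genes. Fmod stood at 35.6, 86.6, 26.7 and 35.6 CPM, with ratios of 2.44 (2.20 to 2.70) and 1.33 (1.23 to 1.45). Dcn went the other way, at 7198, 5610, 15945 and 15658 CPM and a quadriceps ratio of 0.779 (0.773 to 0.786). Decorin message was thus the most abundant of the 41 in 3 of the libraries and was lower in the knockout quadriceps, where Sparc exceeded it. Bgn, a close relative of decorin, stood at 2120, 3006, 2419 and 2388 CPM, a quadriceps ratio of 1.42. Lum, Ogn, Prelp and Vcan had quadriceps ratios of 1.18, 0.919, 0.756 and 1.03.

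Because Fmod is so high in tenocyte-like cells, the 9 tenocyte markers were read in fibroblast-like cells as well. Their summed level was 12.8, 56.3, 28.7 and 41.4 CPM, and 8 of 9 were higher in the knockout quadriceps than in mdx5cv. The difference between the quadriceps libraries was mostly Col11a1, a fibrillar collagen chain outside the gate, at 4.57, 41.6, 9.94 and 25.1 CPM. Chad and Kera stayed under 1 CPM in each library, but the gate allows a fibroblast-like cell at most 1 tenocyte gate marker UMI. Their low level was thus set by the gate and is not read as a lack of tenocyte RNA. The 10 blood endothelial markers were all higher there as well, with sums of 19.0, 33.4, 23.5 and 27.5 CPM. Summed smooth muscle markers stood at 259, 483, 282 and 267 CPM, all 9 higher in the knockout quadriceps than in mdx5cv. They were led by Acta2, at 80.7, 170, 73.0 and 74.7 CPM. These marker counts take in any ratio above 1, and several tenocyte and endothelial markers lay near 1 CPM. Over all measured genes the median log2 ratio by genotype in the quadriceps was 0.05. Among fibroblast-like cells without a marker UMI of another class (271, 370, 2490 and 994 cells), the quadriceps ratio was 4.35 for Fmod, 3.04 for Postn and 2.33 for Aspn, and 15 genes, among them 9 of the 10, were past the fold upward there. The share of measured genes past it was larger too, at 5.96% upward and 4.76% downward. Thbs1, the exception, stood at 1.46.

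**Figure D3:**
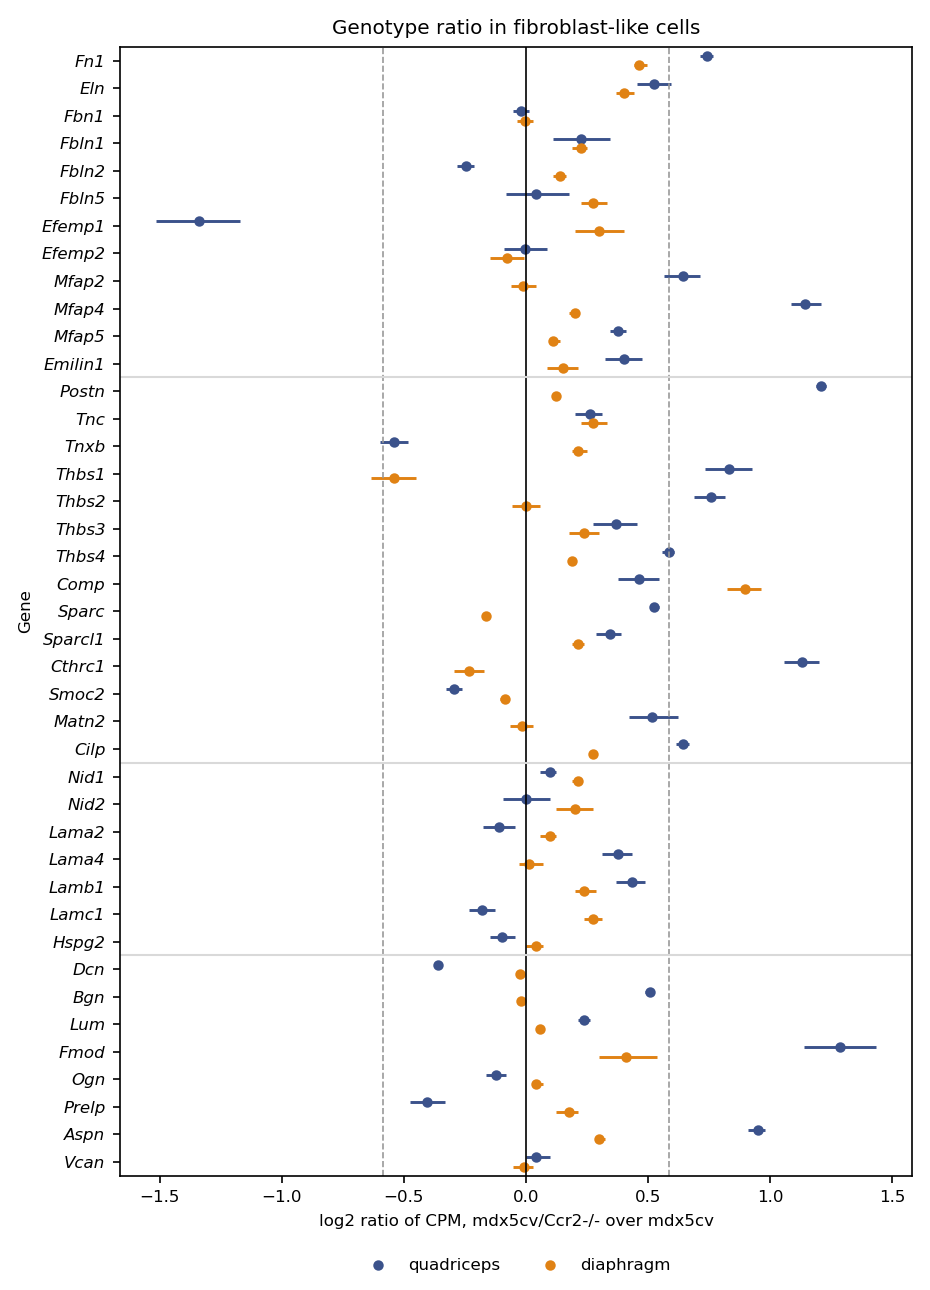
Log2 ratio of CPM in fibroblast-like cells, mdx5cv/Ccr2-/- over mdx5cv, for each of the 41 genes (grouped by role between grey lines), in the quadriceps and the diaphragm. Bars are 95% intervals for counting error, 1 library per group, and dashed lines mark a fold of 1.5. In the quadriceps 10 points lie past the right line and Efemp1 past the left, and in the diaphragm Comp alone lies past a line.

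The make-up of the fibroblast-like class also differed between the quadriceps libraries. Whether this make-up or a change within cells lay behind the genotype ratios was not tested. The ratios within sets that follow are description. Cells were put into 4 sets by markers outside the 41 genes, with a set named by its first 2 markers. The Lrrc15 Adam12 set, gated on Lrrc15, Adam12, Kif26b, Mest and Runx1, took 9.62%, 35.6%, 4.90% and 5.09% of fibroblast-like cells. Its share was thus several times larger in the knockout quadriceps than in any other library. When cells were thinned to 2000 UMIs, those with a UMI of these markers were 38.1%, 57.8%, 29.8% and 29.4%, so the same library was highest at equal depth. The Gdf10 Inmt set took 53.1%, 34.0%, 31.5% and 26.3%, the Pi16 Dpp4 set 8.84%, 4.54%, 26.4% and 33.4%, and the Ccl7 Ptx3 set 8.39%, 2.22%, 3.08% and 2.35%.

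The sets differed in their matrix genes, described here without a test. The Lrrc15 Adam12 set was led by Cthrc1, Postn, Tnc and Thbs2, which in each library exceeded the level in the other sets together by at least 6.33, 4.04, 2.92 and 1.87 times. The Pi16 Dpp4 set was led by Eln, Efemp1, Lamc1 and Fbln5, the Gdf10 Inmt set by Fbln1, Comp, Dcn and Sparcl1, and the Ccl7 Ptx3 set by Thbs1, Tnc, Efemp2 and Vcan. In the library where it was smallest, this ratio ran from 1.51 (Fbln5) to 1.82 (Eln) for the Pi16 Dpp4 genes, from 1.29 (Sparcl1) to 1.69 (Fbln1) for the Gdf10 Inmt genes, and from 1.05 (Vcan) to 2.18 (Thbs1) for the Ccl7 Ptx3 genes. Against the highest single other set, Tnc, Eln, Efemp2 and Vcan were not the highest in every library. Fn1 was highest in the Pi16 Dpp4 set in the quadriceps, at 5310 and 5830 CPM against 2734 and 3365 in the Lrrc15 Adam12 set. In the diaphragm that order was turned, at 1050 and 1330 against 1791 and 1986 CPM.

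Within the Lrrc15 Adam12 set the genotypes lay closer. Postn stood at 6801, 7841, 6993 and 7262 CPM there, a quadriceps ratio of 1.15 (1.13 to 1.18), and Cthrc1 at 473, 568, 674 and 564 CPM, a ratio of 1.20 (1.11 to 1.30). Of the 10 genes past the fold upward in the quadriceps, 2 were past it within this set (Thbs1 at 1.83 and Fmod at 1.92), where 2.54% of measured genes were past it upward. Within the Gdf10 Inmt set 6 of the 10 were past it, against 2.08% of measured genes, with Postn at 1.59 and Mfap4 at 1.91, while Cthrc1 and Thbs2 stood at 1.07 and 1.08. With the cells of the Lrrc15 Adam12 set left out, 7 of the 10 were past the fold and so were 3 other genes, against 2.53% of measured genes. Postn stood at 1.84, Mfap4 at 2.19, Fmod at 2.08 and Fn1 at 1.51, while Mfap2, Thbs2 and Cthrc1 fell short at 1.47, 1.33 and 1.39. Cthrc1 and Thbs2 were thus near level within the Gdf10 Inmt set and short of the fold with the Lrrc15 Adam12 set left out, whereas Postn, Mfap4, Aspn, Cilp, Thbs1 and Fmod were past it both times.

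The Pi16 Dpp4 and Ccl7 Ptx3 sets were small in the quadriceps, at 79 and 49 cells and at 75 and 24 cells. In the Ccl7 Ptx3 set 32 of the 41 genes, the 10 among them, were past the fold upward by genotype, where 15% of measured genes were, with Thbs1 at 140 and 822 CPM, a ratio of 5.85 (4.98 to 6.89), Cthrc1 at 5.41 and Thbs2 at 2.02. In the Pi16 Dpp4 set, where 14.9% of measured genes were past the fold upward, 4 of the 10 were, Mfap4, Cilp, Fmod and Aspn. Efemp1, at 454, 380, 61.8 and 74.8 CPM in the Pi16 Dpp4 set, had a ratio of 0.838 (0.699 to 1.0) there. In the Lrrc15 Adam12, Ccl7 Ptx3 and Gdf10 Inmt sets, where it was far lower in the quadriceps, its ratios were 0.406, 0.401 and 0.537. Efemp1 stood at 12.9 and 5.22 CPM in the first of these, short of the limit for a measured gene. In the Ccl7 Ptx3 set it stood at 40.9 and 16.4 CPM, so both ratios rest on few UMIs. The Pi16 Dpp4 share itself was smaller in the knockout quadriceps.

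**Figure D4:**
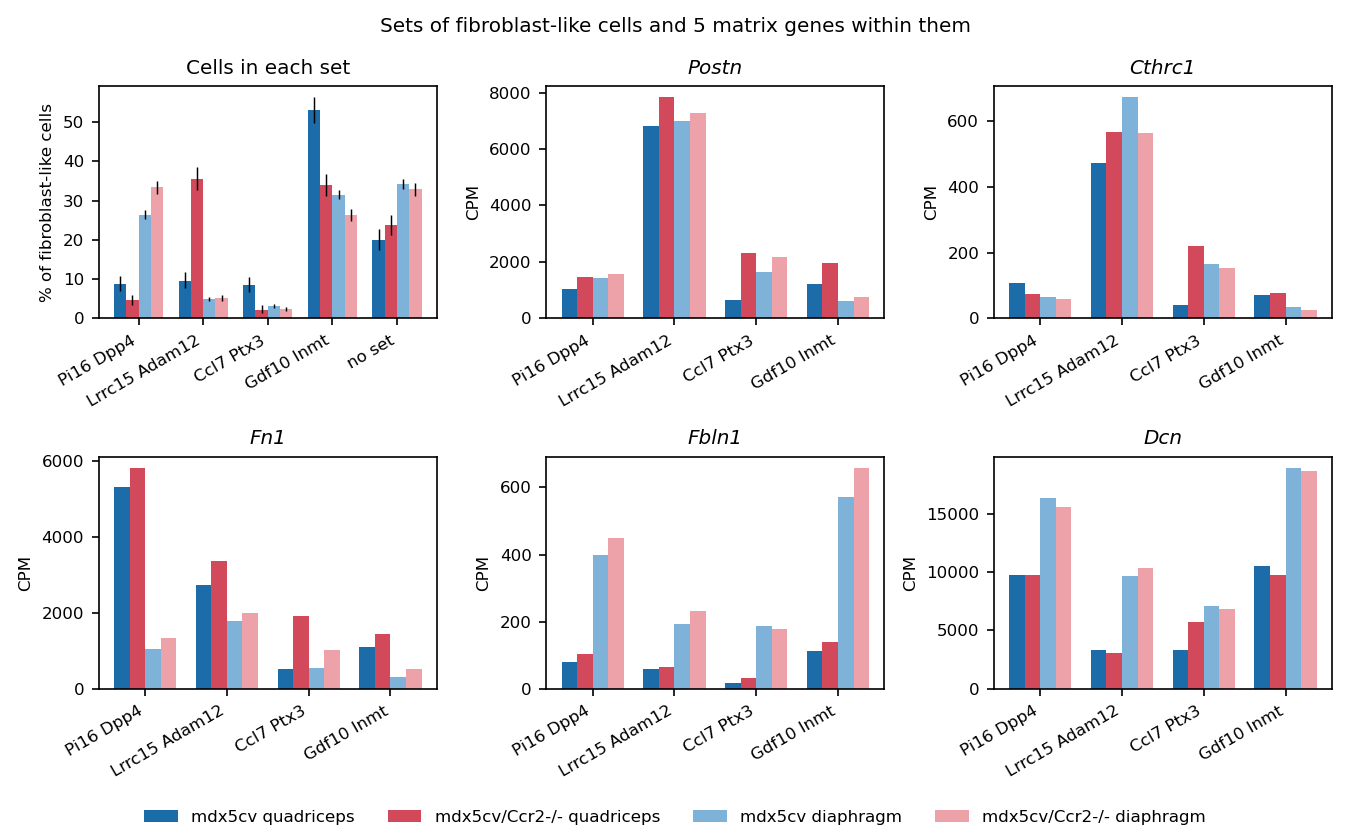
Share of fibroblast-like cells in each gated set, in percent with 95% binomial intervals (top left), and level of 5 of the matrix genes in each set, in CPM, 1 bar per library. The Lrrc15 Adam12 share of the knockout quadriceps (35.6%) stands apart, whereas Postn within that set lies between 6801 and 7841 CPM in all 4 libraries.

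The second comparison set the diaphragm against the quadriceps in each genotype. In mdx5cv, 14 of the 41 genes were past the fold upward in the diaphragm and 9 downward, where 8.06% and 8.58% of measured genes were, and in mdx5cv/Ccr2-/- 11 and 14 were, against 8.11% and 7.15%. The median log2 ratios of the 41 genes were near 0, at 0.10 and 0.03, since genes of both directions were present. Past the fold upward in both genotypes were 8 genes, against 5.39% of measured genes, and downward 7, against 3.95%. With TMM factors the split was 14 and 7 in mdx5cv and 14 and 12 in mdx5cv/Ccr2-/-, and over measured genes 10.1% and 6.97%, and 9.83% and 5.51%.

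The largest ratio among the 41 genes was that of Fbln1, a fibulin of elastic fibres and basement membranes. It stood at 75.6, 88.7, 422 and 491 CPM, so the muscles were far apart and the genotypes close. The diaphragm ratio was 5.58 (5.24 to 5.93) in mdx5cv and 5.54 (5.25 to 5.85) in mdx5cv/Ccr2-/-. After thinning to 2000 UMIs, 15.7%, 17.1%, 55.0% and 59.4% of fibroblast-like cells held a Fbln1 UMI, and 48.3%, 56.3%, 81.6% and 89.8% before it, against at most 1.81% of thinned lymphoid-like cells. The difference was present in each set. Fbln1 went from 80.5 to 400 CPM in the Pi16 Dpp4 set of mdx5cv, from 59.6 to 194 in the Lrrc15 Adam12 set, from 18.2 to 186 in the Ccl7 Ptx3 set and from 114 to 572 in the Gdf10 Inmt set.

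Mfap4 was the next in mdx5cv, at ratios of 4.64 (4.47 to 4.82) and 2.40 (2.34 to 2.46). Fbln5, a fibulin needed for elastic fibre assembly, stood at 63.3, 65.3, 117 and 142 CPM, with ratios of 1.85 and 2.18. Sparcl1 stood at 375, 474, 836 and 972 CPM, with ratios of 2.23 and 2.05. Lama2, the laminin alpha chain of muscle basement membrane, stood at 254, 235, 383 and 409 CPM, with ratios of 1.51 and 1.74. For each of these genes both diaphragm libraries lay above both quadriceps libraries.

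Among the small leucine-rich proteoglycans, Dcn had diaphragm ratios of 2.22 (2.20 to 2.23) and 2.79 (2.77 to 2.81). Lum, which encodes lumican and lies beside Dcn on chromosome 10, stood at 1486, 1751, 2817 and 2928 CPM, with ratios of 1.90 and 1.67. Ogn, which encodes osteoglycin and lies on chromosome 13 with Aspn, stood at 676, 621, 1193 and 1233 CPM, with ratios of 1.76 and 1.98. Aspn was past the fold in mdx5cv, at 2.14, but not in mdx5cv/Ccr2-/-, at 1.37. The 8 proteoglycan genes had median log2 ratios of 0.50 and 0.41, the highest of the 4 groups, but did not go one way. In mdx5cv 4 were past the fold upward and 1 downward, against 8.06% and 8.58% of measured genes. In mdx5cv/Ccr2-/- 3 and 2 were, against 8.11% and 7.15%. Vcan was lower in the diaphragm of both genotypes, Fmod stood at 0.751 and 0.411, Bgn at 1.14 and 0.794, and Prelp at 0.866 and 1.29.

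Fbln1 (chr15:85205949-85286535, plus strand) and Ogn (chr13:49608046-49624501, plus strand) are shown as 2 genes higher in the diaphragm of both genotypes. The stretches are chr15:85205699-85205948 and chr13:49607765-49608014, again the 250 bases before the RefSeq start site in GRCm38.p6 with TATAAA of either strand in capitals.
Fbln1: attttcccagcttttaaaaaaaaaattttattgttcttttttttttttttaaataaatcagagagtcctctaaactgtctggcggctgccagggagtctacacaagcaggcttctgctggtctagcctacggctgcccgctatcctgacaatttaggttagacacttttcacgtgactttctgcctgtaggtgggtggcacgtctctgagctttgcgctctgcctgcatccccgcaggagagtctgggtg
Ogn: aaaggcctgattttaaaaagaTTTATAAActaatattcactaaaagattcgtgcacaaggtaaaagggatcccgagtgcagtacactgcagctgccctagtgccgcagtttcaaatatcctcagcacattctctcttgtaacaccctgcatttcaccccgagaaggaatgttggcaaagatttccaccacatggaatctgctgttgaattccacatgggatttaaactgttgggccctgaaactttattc
Ogn holds 2 matches that overlap, beginning 229 and 227 bases before the start site, and no match to these letters was found in the window of Fbln1.

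Lower in the diaphragm of both genotypes were Tnc, Fn1, Fbn1, Vcan, Emilin1, Efemp2 and Comp. Tnc, the tenascin of injured and mechanically loaded tissue, stood at 340, 407, 134 and 163 CPM, with ratios of 0.394 (0.379 to 0.409) and 0.40 (0.386 to 0.415). The share of cells with a Tnc UMI after thinning was 17.8%, 26.1%, 7.21% and 8.73%, and 32.4%, 48.9%, 15.5% and 22.7% before. Fn1 had ratios of 0.454 and 0.377, and Fbn1 of 0.563 and 0.568. Vcan, the large chondroitin sulphate proteoglycan versican, stood at 404, 418, 238 and 237 CPM, with ratios of 0.590 and 0.567. Emilin1, a glycoprotein at the surface of elastic fibres, stood at 160, 212, 97.2 and 108 CPM, with ratios of 0.606 and 0.508. Efemp2, a fibulin, stood at 141, 141, 90.0 and 85.2 CPM, with ratios of 0.638 and 0.606. Elastic fibre genes were thus split, with Fbln1, Fbln5 and Mfap4 higher in the diaphragm and Fbn1, Emilin1 and Efemp2 lower.

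Genes past the fold between the muscles in 1 genotype included those that differed by genotype in the quadriceps. In mdx5cv/Ccr2-/- Postn, Thbs1, Thbs2, Cthrc1 and Fmod were lower in the diaphragm, at ratios of 0.379, 0.286, 0.417, 0.336 and 0.411, as were Lama4 and Lamb1 at 0.643 and 0.618. In mdx5cv the same 7 genes had ratios between 0.702 and 0.865. These comparisons share libraries with those by genotype and are no separate support for them. Besides Aspn, Eln, Mfap5, Sparc, Matn2 and Cilp were past the fold upward in mdx5cv and short of it in the knockout, at ratios of 1.51 to 2.06, against 0.936 to 1.43. Efemp1 turned from 0.663 to 2.06, Nid2 was past the fold downward in mdx5cv at 0.606, and Tnxb and Nid1 were past it upward in mdx5cv/Ccr2-/- at 1.86 and 1.52.

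**Figure D5:**
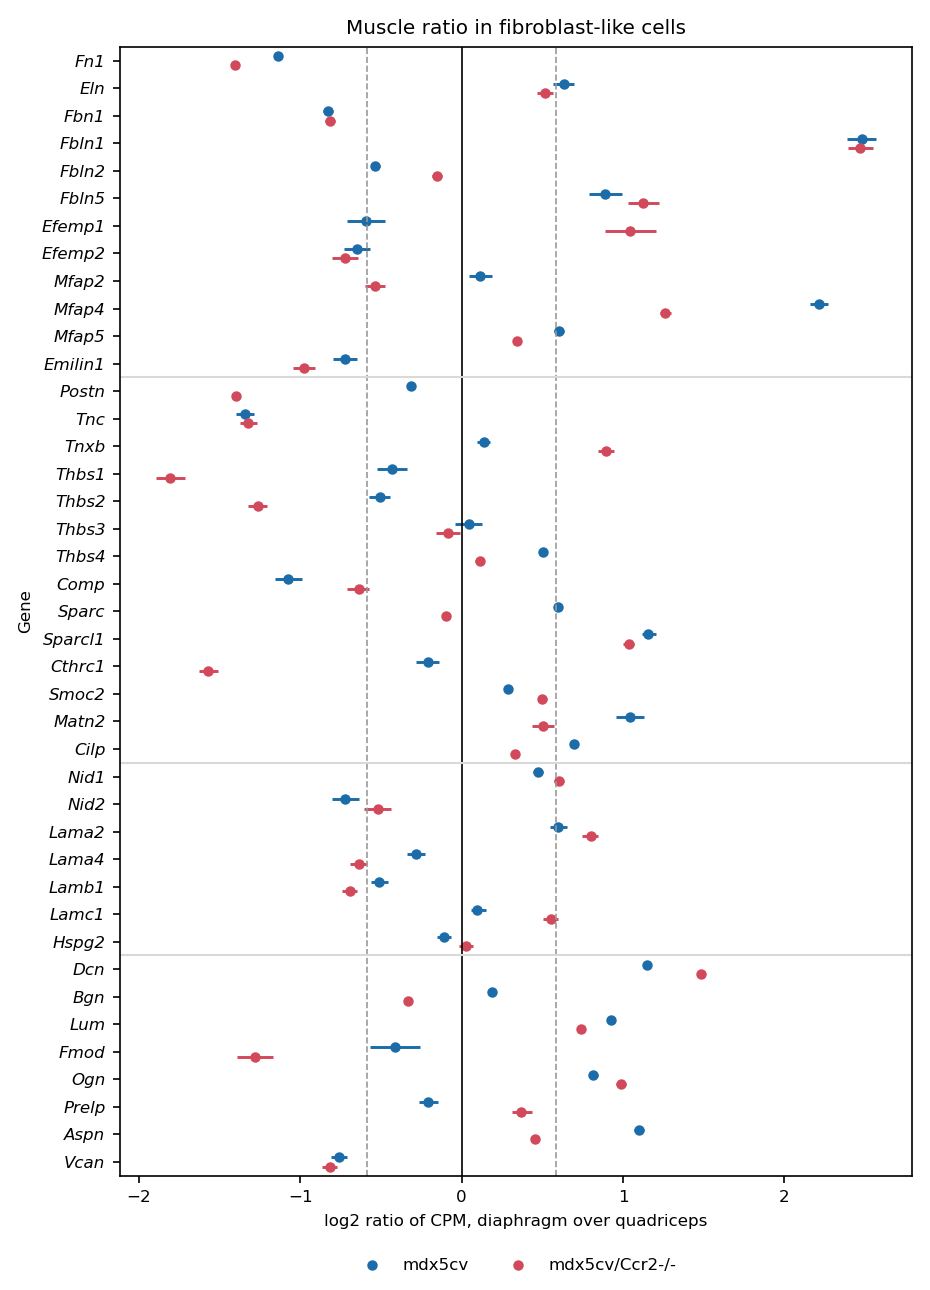
Log2 ratio of CPM in fibroblast-like cells, diaphragm over quadriceps, for each of the 41 genes (grouped by role between grey lines), in mdx5cv and in mdx5cv/Ccr2-/-. Bars are 95% intervals for counting error, 1 library per group, and dashed lines mark a fold of 1.5. Fbln1 lies farthest right in both genotypes, and Tnc and Fn1 lie past the left line in both.

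Several measures moved with the muscle. Fibroblast-like cells of the diaphragm were shallower, as given above. The 12 genes induced by tissue dissociation summed to 2782, 2603, 9248 and 6928 CPM, and 12 of 12 and 11 of 12 were past the fold upward. The 9 mesothelial markers summed to 0.692 and 0.183 CPM in quadriceps and 29.5 and 33.3 CPM in diaphragm libraries, nearly all of it Wt1, at 0.138, 0.0611, 27.6 and 30 CPM, while Msln, Lrrn4, Upk1b and Krt18 were at 0 in both quadriceps libraries. The set shares differed as well, with the Pi16 Dpp4 set several times larger in the diaphragm. Their part in the muscle ratios was not tested. Within the Gdf10 Inmt set alone, 8 genes were past the fold upward and 14 downward in mdx5cv, against 6.69% and 6.74% of measured genes, and 9 and 16 in mdx5cv/Ccr2-/-, against 5.93% and 7.56%. In mdx5cv the ratio of Eln turned to 0.782 and that of Efemp1 to 1.17.

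Other genes of these families were read as well. Of 73 other matrix glycoprotein and proteoglycan genes, 37 were measured in fibroblast-like cells. In the diaphragm 13 were past the fold upward and 6 downward in mdx5cv, against 8.06% and 8.58% of all measured genes. In mdx5cv/Ccr2-/- 15 and 8 were, against 8.11% and 7.15%. The median log2 ratios were 0.39 and 0.30. By genotype 7 were higher and 3 lower in quadriceps cells, against 3.12% and 3.04%. In diaphragm cells 0 and 1 were, against 0.429% and 0.772%. The medians by genotype were 0.07 and 0.11. Spp1, which encodes osteopontin, stood at 24.7, 50.2, 3.49 and 1.95 CPM, and Ccn5, a matricellular growth regulator, at 77.2, 76.9, 19.9 and 15.7 CPM, both lower in the diaphragm. Ccn3, of the same family, stood at 45.0, 94.3, 14.3 and 19.4 CPM and was lower there too. Slit2, a secreted guidance protein, was higher in the diaphragm, at 6.36, 14.4, 40.8 and 35.8 CPM. Spp1, Ccn5, Ccn3 and Slit2 each stood above 20 CPM only in the muscle where they were higher. They counted as measured through that muscle, so their values are description and carry no further weight.

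Of 28 matrix receptor genes 14 were measured. In the diaphragm 0 were past the fold upward, against 8.06% of all measured genes in mdx5cv and 8.11% in mdx5cv/Ccr2-/-. Downward there were 3 in mdx5cv, against 8.58%, and 4 in mdx5cv/Ccr2-/-, against 7.15%. By genotype 2 were higher and 1 lower in quadriceps cells, against 3.12% and 3.04%. In diaphragm cells 0 were past the fold in either direction, against 0.429% upward and 0.772% downward. Itga5, the fibronectin receptor subunit, stood at 78.8, 55.1, 34.7 and 30.9 CPM. Cd44, which binds hyaluronan, stood at 177, 147, 60.8 and 69.8 CPM. Itga5 and its ligand Fn1 were thus both lower in the diaphragm. Between genotypes they went opposite ways, with Itga5 lower and Fn1 higher in the knockout library of each muscle.

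Tenocyte-like cells need care. The gate required marker UMIs such as Tnmd, at 1897, 1496, 1098 and 992 CPM, but the mature tendon genes Kera (876, 314, 32.6 and 42.6 CPM) and Chad (1128, 344, 65.9 and 97.4 CPM) were low in the diaphragm libraries. The check marker Cilp2 followed, at 824, 406, 68.9 and 102 CPM. The class thus differed between the muscles in its own defining genes, and Kera and Chad were also lower in the knockout quadriceps than in mdx5cv. In the quadriceps 16 of 40 measured matrix genes were past the fold upward by genotype and 6 downward, against 9.07% and 4.45% of 5592 genes. Postn stood at 1831 and 6644 CPM, a ratio of 3.63, and Fmod at 6192 and 2843 CPM, a ratio of 0.459. Fmod thus went opposite ways in tenocyte-like and fibroblast-like cells. In the diaphragm Thbs1 alone was past the fold, at 288 and 448 CPM, a ratio of 1.56, against 4.38% of genes upward and 2.84% downward. Between the muscles 20 were higher and 6 lower in mdx5cv (13.5% and 8.17% of genes), and 11 and 6 in mdx5cv/Ccr2-/- (7.78% and 5.70%). The part of the lower tendon genes in these ratios was not tested.

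Blood endothelial-like cells numbered 1331, 2271, 679 and 757, and 19 of the 41 genes were measured in them. By genotype 2 were past the fold upward in the quadriceps, Postn at 21.2 and 39.8 CPM and Bgn at 26.3 and 44.8 CPM, against 0.784% of 5869 genes, and 0 downward, against 0.579%. Lymphoid-like cells of the same libraries held 19.7 and 46.4 CPM of Postn and 9.83 and 21.4 CPM of Bgn. The endothelial Postn level was thus close to that of free RNA. Bgn was higher in the knockout quadriceps in lymphoid-like cells too, and the part of free RNA in its endothelial ratio was not tested. In the diaphragm Fn1 (55.4 and 84.3 CPM) and Thbs1 (7.91 and 19.1 CPM) were past the fold upward, against 1.35% of genes, and 0 downward, against 1.89%. Eln was lower in the diaphragm in both genotypes, at 88.1, 110, 50.2 and 63.2 CPM and ratios of 0.570 and 0.577, against 2.56% and 2.85% of genes past the fold downward. In fibroblast-like cells Eln had muscle ratios of 1.55 and 1.43. Thbs1 was also lower in the diaphragm of mdx5cv, at 32.3 and 7.91 CPM. Both diaphragm libraries lay under 20 CPM, so Thbs1 counted as measured only through the quadriceps. Its endothelial ratios are therefore description and carry no further weight. Dcn, past the fold upward in the diaphragm of both genotypes (2.79% and 1.84% of genes), stood at 33.6, 28.8, 120 and 91.2 CPM. Lymphoid-like cells held 29.5, 33.9, 99.8 and 85.7 CPM of it, so no endothelial level is read from it.

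Myeloid-like cells, a class that holds monocytes and macrophages together, numbered 1658, 1087, 2177 and 544, and 5 of the 41 genes were measured. Vcan, known to be made by monocytes, stood at 73.8, 4.01, 16.5 and 2.74 CPM, with genotype ratios of 0.0544 and 0.166. Thbs1 stood at 89.9, 20.9, 69.8 and 11.3 CPM, with ratios of 0.232 and 0.162. Fn1 stood at 363, 253, 222 and 105 CPM, and its diaphragm ratio was 0.475. Vcan and Thbs1 were thus low in both knockout libraries. By genotype in quadriceps and diaphragm, 3.35% and 2.87% of 5430 measured genes were past the fold downward, and 3.76% and 3.61% upward. Vcan counted as measured only through the mdx5cv quadriceps, the sole library where it stood above 20 CPM. Its ratios are therefore description and carry no further weight. In the knockouts Vcan stood near the level of lymphoid-like cells (7.14 and 2.52 CPM). Whether fewer cells of a type or less message per cell lay behind these values cannot be told apart in this class. Sparc and Dcn, the other 2 measured genes, stood at 25.5 to 77.6 and 19.9 to 132 CPM, and in lymphoid-like cells at 36.1 to 83.8 and 29.5 to 99.8 CPM, so no myeloid level is read from them.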

How the data were processed

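Single-cell RNA was measured with 10x Genomics 3′ v3.1 chemistry, per the labels' protocols. The authors deposited unnormalised UMI counts for every gene and barcode. Cell Ranger 6.1.2 and mm10 were used, per the submitters' processing notes. Sources used here do not give the annotation release or the cell calling.

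A barcode passed with 500 UMIs, 300 genes and a mitochondrial share of 15% or less (31077 of 33554). The highest Scrublet scores (scanpy 1.11.5) were removed as likely doublets, at an assumed 0.8% per 1000 barcodes (2508 barcodes). Tenocyte-like cells were gated before fibroblast-like cells, which may hold 1 tenocyte marker UMI, and lymphatic before blood endothelial cells. A set needed 2 UMIs of its markers and 2 times those of any other set. UMIs were summed per class and library and given as CPM; genes with a mean of at least 20 CPM and 50 UMIs counted as measured. Ratios carry conditional binomial intervals and shares Clopper-Pearson intervals (scipy 1.17.1), tested on simulated data. A class was compared if each library held 100 of its cells.

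All 41 genes are accounted for. Values in all libraries are given for genes past the fold in both muscles or both genotypes, for up to 3 genes that lead another class and up to 4 that lead a set or belong to another list; the rest were chosen for their ratio after values were seen. The 41 genes, lists, markers and rules were chosen with earlier results of these data known. Other settings numbered 9, with 3 more chosen after seeing the data (edgeR 4.0.16 for TMM).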

Additional observations from a re-analysis of the deposited data

Results flagged for a closer look

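For 4 genes the counting intervals lay on opposite sides of 1 when the same contrast was made in both muscles or both genotypes of fibroblast-like cells, with at least 1 ratio past the fold. Efemp1 had genotype ratios of 0.395 in the quadriceps and 1.23 in the diaphragm, and muscle ratios of 0.663 for mdx5cv and 2.06 for mdx5cv/Ccr2-/-. Thbs1 had genotype ratios of 1.78 in the quadriceps and 0.687 in the diaphragm, and Cthrc1 of 2.19 and 0.851. Sparc had muscle ratios of 1.51 for mdx5cv and 0.936 for mdx5cv/Ccr2-/-. With 1 library per group these differences between contrasts were not tested.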

How the results depend on the processing

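Across 9 planned and 3 added alternatives, the 60 gene ratios past the fold in fibroblast-like cells kept their direction, except with the Gdf10 Inmt set alone, where Eln (0.782) and Efemp1 (1.17) turned between the muscles in mdx5cv; 43 to 60 stayed past the fold, fewest in the Gdf10 Inmt set alone (43), without the Lrrc15 Adam12 set (49) and with the mean of per-cell CPM (50). Genes lower by genotype in the quadriceps numbered 2, in place of 1, with median ratio scaling, TMM or the looser tenocyte limit. Under that limit a cell may hold tenocyte marker UMIs up to the general limit. Of all measured genes 3.76%, 3.84% and 3.20% were lower in these settings, in place of 3.04%. Genes higher by genotype in the diaphragm numbered 4, in place of 1, without marker UMIs of another class. They numbered 2 with the mean of per-cell CPM and 4 in the Gdf10 Inmt set. Of all measured genes 0.736%, 0.496% and 0.873% were higher in these settings, in place of 0.429%. Lower genes numbered 1, in place of 0, with TMM and with per-cell CPM (Thbs1 in both). The share of all measured genes lower was 0.858% and 0.718%, in place of 0.772%. Between the muscles, the Gdf10 Inmt set gave 8 higher and 14 lower in mdx5cv, against 6.69% and 6.74% of all measured genes. In mdx5cv/Ccr2-/- the higher count was 6 with per-cell CPM and 7 without the Lrrc15 Adam12 set, in place of 11. The share of all measured genes higher was 6.88% and 6.31%, in place of 8.11%. The cause was not tested. The added alternatives were chosen after seeing the data. No paired analysis was possible because each group has 1 library, so groups share at most 1 replicate number, and no fit that takes the muscles as replicates of a genotype was made. Cell numbers limit glial-like, pericyte-like and quadriceps lymphatic endothelial-like cells and the small fibroblast sets, and intervals cover counting error only.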
